A study of Mus musculus with 47 samples.

Results

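The cells described here were labelled as mouse pre-cDC1, the name for committed precursors of type 1 conventional dendritic cells (cDC1), with a heterozygous deficiency of the Irf8 enhancer at +56 kb (d+56het pre-cDC1). Their 3 RNA-seq libraries were set against 3 libraries of wild-type (WT) common dendritic cell progenitors (CDP), and these 6, chosen by title, are part of a series of 47 libraries. A further 3 libraries of WT pre-cDC1 show the same step in cells that carry no deletion. All 9 libraries came from bone marrow cells cultured with Flt3 ligand (Flt3L), the cytokine that drives dendritic cell (DC) development, and the labels name no transgene, virus or drug for them. The labels give no strain, age or sorting gate for these groups. Heterozygous CDP were not analysed here, so in d+56het pre-cDC1 against WT CDP the part of the stage and the part of the deletion cannot be told apart. The direct comparison with WT pre-cDC1 holds the labelled stage constant and tests where the deleted cells ended up differently.

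DCs develop from the monocyte-dendritic cell progenitor (MDP) through the CDP, which gives rise to precursors of cDC1, of cDC2 and of plasmacytoid DCs (pDC). Irf8, a transcription factor of the interferon regulatory factor family, is required for the cDC1 branch, and its dose during development is set by enhancers downstream of the gene. The +56 kb enhancer is known for activity in monocytes and progenitors. Mature cDC1 take up dead cells, sense double-stranded RNA and cross-present antigen to CD8 T cells.

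Expected counts per library summed to 22116694 to 30643283 in d+56het pre-cDC1, 27397912 to 29581257 in WT pre-cDC1 and 28196653 to 29143974 in WT CDP. Levels are given as CPM, counts scaled to the library's depth after TMM normalization. Replicates of d+56het pre-cDC1 were less alike than the others, with pairwise correlations of log CPM across genes of 0.859 to 0.879, against 0.936 to 0.941 in WT pre-cDC1 and 0.944 to 0.947 in WT CDP. Nothing in the labels says that the 3 libraries of a group are separate mice or cultures, and the design text speaks of duplicates. Each p therefore reflects library-to-library spread, some of which may be technical. The fit held 1 estimate of this spread per gene for all 3 groups together. For d+56het pre-cDC1, whose libraries were less alike, that estimate also drew on the more uniform WT groups and may be too small. Among genes with 1 curated transcript the counts met an upper limit. The 99th percentile was 1.70 counts per base for these genes, against 13.5 with 2 transcripts and 33.0 with 3 or more. Genes of that kind with at least 0.5 counts per base are called near the count limit below.

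The labels were checked against defining markers. All 3 WT CDP libraries held Flt3, Csf1r, Kit, Cd34 and Irf8, but presence alone cannot tell CDP from pre-cDC1. Flt3, Kit and Irf8 were called higher in WT pre-cDC1 than in WT CDP. Csf1r was not called between d+56het pre-cDC1 and WT CDP, while Cd34 was highest in WT CDP. In d+56het pre-cDC1, 7 of 9 pre-cDC1 markers were called higher than in WT CDP, namely Batf3, Id2, Clec9a, Xcr1, Cadm1, Zbtb46 and Itgax. Irf8 was called lower and Cd24a was not called. The calls of Batf3, Clec9a, Xcr1 and Cadm1 were lost in 7, 3, 8 and 1 of the 9 fits without 1 library. They were also lost with only the compared groups fitted. Id2, Zbtb46 and Itgax kept their calls, but Zbtb46 belongs to the conventional DC lineage, which includes cDC2. Several of the 9 markers stayed far below WT pre-cDC1, and markers of pDC and cDC2 were higher than in WT pre-cDC1, as given below. The libraries labelled d+56het pre-cDC1 therefore met their label in part.

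Against WT CDP, 1055 genes were higher in d+56het pre-cDC1 (9.18% of 11493 tested) and 957 were lower (8.33%), by edgeR's quasi-likelihood test at a Benjamini-Hochberg adjusted p under 0.05. Without d+56het replicate 1 the larger share turned, with 926 higher and 1053 lower. In WT pre-cDC1 against the same WT CDP libraries, 1073 genes were higher (9.34%) and 887 lower (7.72%). With only the compared groups fitted, d+56het pre-cDC1 against WT CDP gave 1339 calls in both directions together, beside 2012. For WT pre-cDC1 against WT CDP that fit gave 3132, beside 1960, so the counts do not rank these steps by size. Counted by ranges, 18.7% of genes had all 3 d+56het libraries above all 3 WT CDP libraries and 20.4% below, with 22.0% and 26.3% for WT pre-cDC1 against WT CDP and 16.3% and 18.5% for d+56het against WT pre-cDC1. Both comparisons with WT CDP share its libraries, so their values stand side by side below and the difference is read from the direct test. That test called 870 genes higher (7.57%) and 904 lower (7.87%) in d+56het than in WT pre-cDC1. Scaling by total library size moved the split of these calls to 1234 higher and 615 lower for d+56het against WT pre-cDC1, and to 829 higher and 1234 lower for WT pre-cDC1 against WT CDP. It also shifted the median log2 difference of all genes from 0.00 to 0.13 and from -0.06 to -0.17 in these comparisons. Without WT CDP replicate 1, 2 or 3, the calls in d+56het pre-cDC1 against WT CDP numbered 1145, 1072 and 1283 in both directions together, against 2012 with all libraries. Those between the pre-cDC1 genotypes numbered 1055, 956 and 1171 without WT pre-cDC1 replicate 1, 2 or 3, against 1774.

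**Figure D1:**
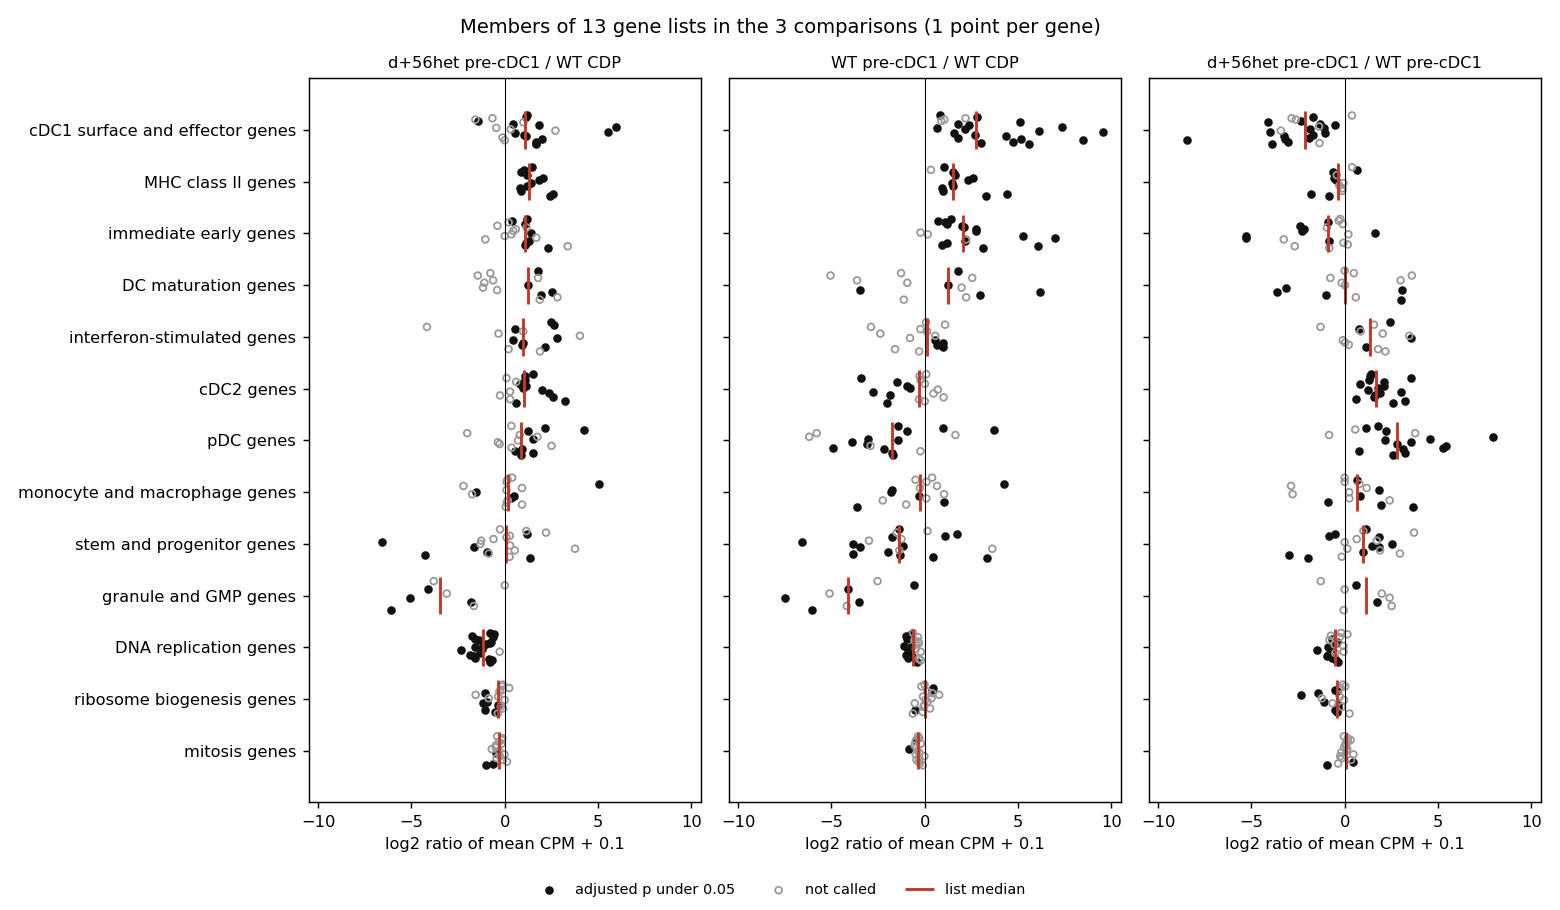
Log2 ratio of group means (CPM + 0.1) for the tested members of 13 gene lists, 1 point per gene, in d+56het pre-cDC1 over WT CDP (left), WT pre-cDC1 over WT CDP (middle) and d+56het over WT pre-cDC1 (right); filled points had an adjusted p under 0.05 and red bars are list medians. MHC class II genes lie right of 0 in both left panels, whereas cDC1 genes lie mostly left of 0 and pDC and cDC2 genes right of 0 in the right panel.

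Irf8 (chromosome 8, 120736358 to 120756694, GRCm38.p6) was lower in d+56het pre-cDC1 than in WT CDP. Its level was 931, 941 and 1112 CPM in d+56het pre-cDC1, 3307, 3435 and 3609.6 CPM in WT pre-cDC1 and 1682, 1857 and 1352 CPM in WT CDP. The deleted cells lay below every WT CDP library, and WT pre-cDC1 lay above them. The log2 fold change was -0.71 (SE 0.13, adjusted p = 0.00752) against WT CDP by edgeR's quasi-likelihood test, beside 1.08 (SE 0.13, adjusted p = 0.00100) for WT pre-cDC1 against WT CDP. The direct difference was -1.79 (SE 0.13, adjusted p = 0.000297), which leaves d+56het pre-cDC1 at 28.8% of the WT pre-cDC1 level. Without any 1 library the value against WT CDP stayed between -0.83 and -0.61 and its adjusted p at or below 0.0319.

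Of 28 DC transcription factors, 16 were higher (57.1%) and 4 lower (14.3%) in d+56het pre-cDC1 than in WT CDP, with a median log2 difference of 0.67 against -0.02 over all genes tested. In WT pre-cDC1, 13 were higher and 6 lower. Factors that rose include Id2, Zbtb46, Cbfa2t3, Runx1 and Batf3, and also the pDC and cDC2 factors Irf4, Irf7, Tcf4, Spib and Bcl11a. Irf8 and Nfil3 were lower and Bcl6 was not called. Several factors, such as Irf4, Irf7, Bcl11a, Cebpb and Gfi1, are also on other lists below, so the list counts are not independent. Id2, which blocks E proteins and so opposes the pDC programme, stood at 51.8, 53.8 and 40.4 CPM in d+56het pre-cDC1, 61.0, 64.8 and 61.1 CPM in WT pre-cDC1 and 25.3, 26.4 and 26.7 CPM in WT CDP. Both pre-cDC1 groups lay above WT CDP without overlap, at 0.90 (SE 0.12, adjusted p = 0.00267) for d+56het and 1.25 (SE 0.12, adjusted p = 0.000407) for WT. Their direct difference was not called (adjusted p = 0.0856), and Id2 is near the count limit. Zbtb46, a factor restricted to the conventional DC lineage, stood at 46.4, 76.5 and 76.6 CPM in d+56het pre-cDC1, 159.6, 128 and 143 CPM in WT pre-cDC1 and 13.6, 23.6 and 6.57 CPM in WT CDP. It rose by 2.19 (SE 0.42, adjusted p = 0.0106) in d+56het pre-cDC1 and by 3.30 (SE 0.44, adjusted p = 0.00181) in WT pre-cDC1, and every deleted library lay between the other groups. The direct difference of -1.11 (SE 0.41, adjusted p = 0.107) missed the threshold. Cbfa2t3, a corepressor active in DC progenitors, rose by 1.12 (SE 0.14, adjusted p = 0.00165), and Runx1, a factor of blood cell development, by 1.19 (SE 0.09, adjusted p = 0.000261).

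Batf3, the partner of IRF8 that sustains cDC1 identity, stood at 8.64, 11.1 and 7.32 CPM in d+56het pre-cDC1, 15.7, 17.5 and 15.8 CPM in WT pre-cDC1 and 6.28, 4.46 and 3.62 CPM in WT CDP. The deleted cells lay between the WT groups with no overlap. Its rise against WT CDP, 0.91 (SE 0.26, adjusted p = 0.0444), was lost without d+56het replicate 1 or 2, any WT pre-cDC1 replicate, or WT CDP replicate 2 or 3 (adjusted p 0.0689 to 0.140). It was also lost with no filter, with total library size and with only the compared groups fitted, and over all alternatives its adjusted p lay between 0.00582 and 0.143.

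Other factors separated the deleted cells from WT pre-cDC1. Zeb2, a repressor that favours pDC and monocyte fates over cDC1, was at 497, 446 and 531 CPM in d+56het pre-cDC1, 41.4, 16.3 and 69.2 CPM in WT pre-cDC1 and 406, 462 and 512 CPM in WT CDP. Every WT pre-cDC1 library was below every library of the other groups, and d+56het pre-cDC1 overlapped WT CDP. The value was 0.09 (SE 0.41, adjusted p = 0.902) in d+56het pre-cDC1 against WT CDP, -3.44 (SE 0.45, adjusted p = 0.00168) in WT pre-cDC1 against WT CDP and 3.54 (SE 0.46, adjusted p = 0.00235) between the genotypes. Irf4, a factor of cDC2, was at 104, 144 and 98.6 CPM in d+56het pre-cDC1, 13.0, 10.6 and 13.0 CPM in WT pre-cDC1 and 4.84, 11.8 and 19.9 CPM in WT CDP. All deleted libraries exceeded all others, by 3.25 (SE 0.46, adjusted p = 0.00297) over WT CDP and 3.24 (SE 0.46, adjusted p = 0.00322) over WT pre-cDC1. Bcl6, a repressor needed for cDC1, was at 75.8, 71.5 and 81.3 CPM in d+56het pre-cDC1, 223, 220.0 and 199 CPM in WT pre-cDC1 and 55.3, 50.4 and 69.2 CPM in WT CDP. It was 0.39 (SE 0.13, adjusted p = 0.0779) against WT CDP in deleted cells, 1.88 (SE 0.13, adjusted p = 0.000103) in WT pre-cDC1, and -1.49 (SE 0.13, adjusted p = 0.000650) between the genotypes. Cebpa, a myeloid progenitor factor, rose by 1.21 (SE 0.23, adjusted p = 0.00948) over WT CDP and was higher than in WT pre-cDC1 by 1.53 (SE 0.23, adjusted p = 0.00429).

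The 4 factors lower than in WT CDP were Irf8, Nfil3, Cebpb and Gfi1. Nfil3, which acts early in cDC1 commitment, was at 4.89, 8.89 and 7.77 CPM in d+56het pre-cDC1, 13.0, 16.8 and 14.2 CPM in WT pre-cDC1 and 11.1, 15.4 and 18.4 CPM in WT CDP. Leaving out a library reduced this count of 4 to 1 without WT CDP replicate 2 and to 2 without d+56het replicate 1, d+56het replicate 3 or WT CDP replicate 3. The adjusted p of Nfil3 lay between 0.00564 and 0.115 over all alternatives, and its call was lost in 7 of the 9 fits without 1 library. Directly between the genotypes, 8 factors were higher and 5 lower in d+56het than in WT pre-cDC1. The 5 became 2 without d+56het replicate 3 or any WT pre-cDC1 replicate, and 3 without d+56het replicate 1 or WT CDP replicate 2.

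**Figure D2:**
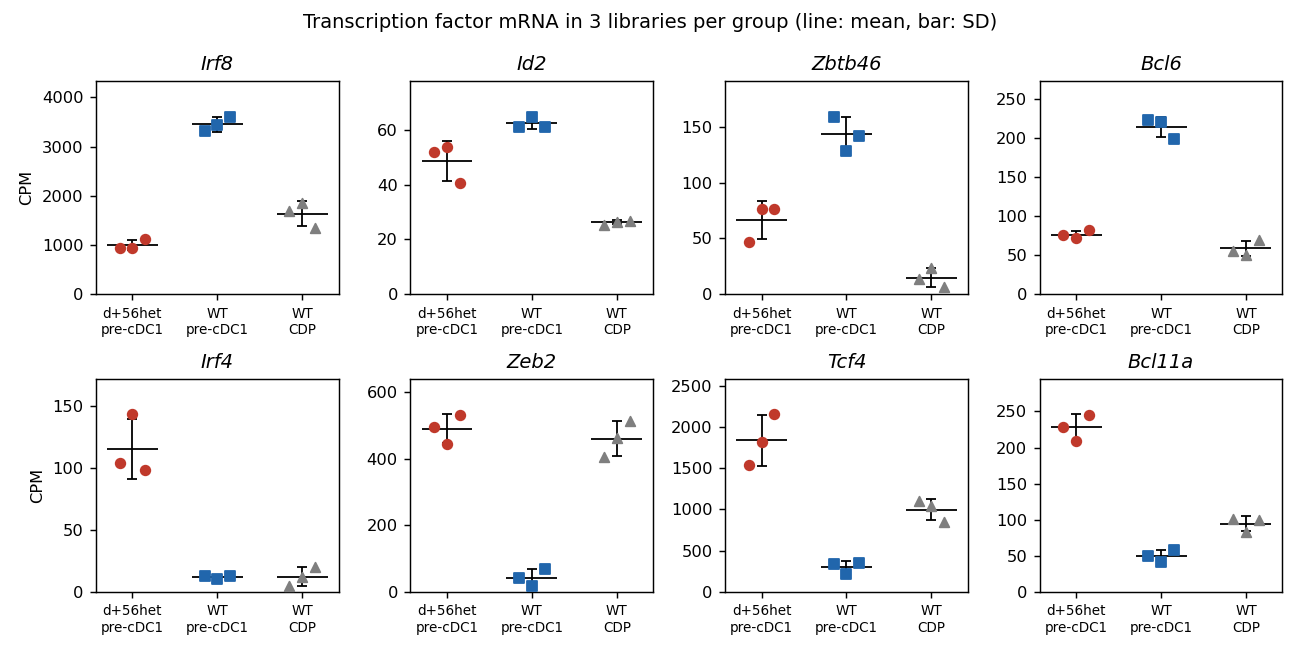
CPM of 8 transcription factors in each library (points), with the mean (line) and SD (bar) of 3 libraries in d+56het pre-cDC1, WT pre-cDC1 and WT CDP; every vertical axis starts at 0. Irf8 is lowest in d+56het pre-cDC1, Id2 and Zbtb46 lie above WT CDP there, and Irf4, Tcf4 and Bcl11a are highest there.

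Of 22 surface and effector genes of cDC1, 13 rose in d+56het pre-cDC1 against WT CDP (59.1%, against 9.18% of all genes tested). There, 1 fell (4.55%, against 8.33%), and 19 rose in WT pre-cDC1 (86.4%, against 9.34%). Between the genotypes, 16 were lower in the deleted cells (72.7%, against 7.87% of all genes tested). By edgeR 0 were higher with all libraries and 1 without d+56het replicate 1, while DESeq2 called 0 and an unadjusted edgeR p under 0.05 held for 1. The list median was 1.07 on the log2 scale in d+56het pre-cDC1 against WT CDP, 2.76 in WT pre-cDC1 against WT CDP and -2.15 between the genotypes. The summed level of the list was 1454 to 1607 CPM in d+56het pre-cDC1, 5308 to 6266 CPM in WT pre-cDC1 and 751 to 772 CPM in WT CDP. In such bulk samples, fewer cells of a type and less RNA per cell cannot be told apart. Leaving out 1 library kept the 13 between 10 and 13 and the 16 between 15 and 17. The 1 that fell became 0 without WT CDP replicate 3 and 2 without d+56het replicate 1 or 3. With 4 members near the count limit set aside, 11 of 18 rose, with a median of 1.17, beside 15 of 18 and 3.69 in WT pre-cDC1.

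The genes that rose in the deleted cells without reaching WT pre-cDC1 include some of the defining markers. Naaa, a lysosomal hydrolase of fatty acid ethanolamides, was at 113, 104 and 105 CPM in d+56het pre-cDC1, 1048, 1026 and 837 CPM in WT pre-cDC1 and 25.8, 23.1 and 31.4 CPM in WT CDP. All 3 groups were apart, and the deleted cells held 11.0% of the WT pre-cDC1 level. Naaa rose by 2.00 (SE 0.14, adjusted p = 0.000233) over WT CDP and was lower than in WT pre-cDC1 by edgeR's quasi-likelihood test, at -3.18 (SE 0.14, adjusted p = 0.000152). Rab7b, a small GTPase of the endosomal and lysosomal route, was at 158, 109 and 101 CPM in d+56het pre-cDC1, 1158, 1226 and 1095 CPM in WT pre-cDC1 and 48.9, 60.0 and 58.8 CPM in WT CDP. It held 10.6% of the WT level after a rise of 1.13 (SE 0.17, adjusted p = 0.00407). Rab43, a GTPase used in cross-presentation, was at 159, 194 and 194 CPM in d+56het pre-cDC1, 554, 636 and 574 CPM in WT pre-cDC1 and 105, 85.1 and 78.5 CPM in WT CDP and rose by 1.03 (SE 0.13, adjusted p = 0.00224). Ifi205, an interferon-inducible gene near the count limit and with close relatives that may share its reads, rose by 1.12 (SE 0.13, adjusted p = 0.00135) and differed from WT pre-cDC1 by -1.68 (SE 0.13, adjusted p = 0.000324).

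Tlr3, the receptor for double-stranded RNA, was at 8.60, 18.8 and 14.3 CPM in d+56het pre-cDC1, 185, 272 and 204 CPM in WT pre-cDC1 and 0, 0.592 and 0 CPM in WT CDP. It was among the largest rises against WT CDP, at 6.13 (SE 0.85, adjusted p = 0.00284), and yet held 6.31% of the WT pre-cDC1 level, a difference of -3.99 (SE 0.65, adjusted p = 0.00590). Its rise lost the call with only the compared groups fitted, and its adjusted p lay between 1.17e-06 and 0.0596 over the alternatives. Gcsam, a signalling adaptor first described in germinal centre B cells, was at 9.31, 25.3 and 7.25 CPM in d+56het pre-cDC1, 236, 291 and 198 CPM in WT pre-cDC1 and 3.89, 6.83 and 10.03 CPM in WT CDP. Deleted and WT CDP libraries overlapped, and the shortfall against WT pre-cDC1 was -4.12 (SE 0.55, adjusted p = 0.00262). The start regions of genes from this list are shown because its members include both Tlr3, with its large rise over WT CDP, and genes far short of the WT pre-cDC1 level. They are the promoters (250 bases before to 50 after the start) of Naaa (chr5:92278132-92278431, minus strand), Tlr3 (chr8:45410331-45410630, minus strand), Gcsam (chr16:45610190-45610489, plus strand) and Ifi205 (chr1:174031706-174032005, minus strand), from RefSeq with GRCm38.p6, 5′ to 3′. Capitals mark matches on either strand to an interferon-response type motif, GAAA followed after any 2 bases by GAAA.
Naaa: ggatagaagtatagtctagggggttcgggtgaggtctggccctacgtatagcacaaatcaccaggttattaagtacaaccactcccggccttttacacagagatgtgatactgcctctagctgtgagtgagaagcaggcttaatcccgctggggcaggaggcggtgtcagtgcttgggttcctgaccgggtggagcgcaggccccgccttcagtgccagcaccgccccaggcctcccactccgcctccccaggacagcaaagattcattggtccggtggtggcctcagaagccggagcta
Tlr3: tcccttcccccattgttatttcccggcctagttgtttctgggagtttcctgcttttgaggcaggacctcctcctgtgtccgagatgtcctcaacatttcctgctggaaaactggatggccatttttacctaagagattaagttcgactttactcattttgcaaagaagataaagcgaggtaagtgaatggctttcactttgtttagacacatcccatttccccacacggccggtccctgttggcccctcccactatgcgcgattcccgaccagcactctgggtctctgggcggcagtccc
Gcsam: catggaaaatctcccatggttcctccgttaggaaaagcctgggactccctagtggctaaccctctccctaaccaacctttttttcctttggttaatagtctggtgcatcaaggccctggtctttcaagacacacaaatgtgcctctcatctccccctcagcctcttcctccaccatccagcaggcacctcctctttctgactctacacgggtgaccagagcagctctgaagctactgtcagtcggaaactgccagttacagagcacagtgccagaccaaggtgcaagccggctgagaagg
Ifi205: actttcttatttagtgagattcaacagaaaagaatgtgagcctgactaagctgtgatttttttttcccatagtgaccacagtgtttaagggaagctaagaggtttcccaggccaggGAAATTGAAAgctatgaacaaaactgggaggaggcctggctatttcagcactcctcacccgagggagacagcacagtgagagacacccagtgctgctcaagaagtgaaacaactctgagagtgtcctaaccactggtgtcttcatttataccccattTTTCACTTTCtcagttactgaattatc
The RefSeq table held promoters of 17 of the 22 genes, and Ifi205 was added because it holds matches, after its values were seen. This motif was found in 2 of these 17 (Ifi205 and Tlr11) and in 3.44% of the 32851 promoters in the table. The Ets-IRF type motif, GGAA followed after any 2 bases by GAAA, was found in 1 of 17 (Cd8a) and in 2.72% of all promoters. AP-1 and IRF composite motifs were searched on both strands as GAAA joined to TGANTCA and as TTTC followed after any 4 bases by TGANTCA. The motifs were searched separately, so that 1 stretch could match several. They were in 0 of 17 promoters and in 0.125% and 0.119% of all promoters. The absence of these letters from a window says nothing about binding elsewhere.

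Xcr1, the chemokine receptor that marks cDC1, was at 2.49, 2.85 and 2.51 CPM in d+56het pre-cDC1, 44.4, 39.7 and 38.7 CPM in WT pre-cDC1 and 0.273, 0.557 and 1.41 CPM in WT CDP. It rose over WT CDP by 1.80 (SE 0.47, adjusted p = 0.0345) but held 6.39% of the WT pre-cDC1 level, a difference of -3.97 (SE 0.48, adjusted p = 0.00187). Cadm1, an adhesion molecule of cDC1, was at 38.9, 29.2 and 34.3 CPM in d+56het pre-cDC1, 329, 274 and 239 CPM in WT pre-cDC1 and 4.33, 15.3 and 12.1 CPM in WT CDP, with a rise of 1.69 (SE 0.39, adjusted p = 0.0226) and a direct difference of -3.04 (SE 0.41, adjusted p = 0.00267). Clec9a, the receptor for actin exposed by dead cells, was at 71.4, 64.5 and 90.0 CPM in d+56het pre-cDC1, 195, 169 and 212 CPM in WT pre-cDC1 and 42.5, 14.8 and 14.2 CPM in WT CDP. All Clec9a values of the deleted cells lay above WT CDP and below WT pre-cDC1, at 1.66 (SE 0.41, adjusted p = 0.0282) against WT CDP, while the difference from WT pre-cDC1 missed the threshold, at -1.35 (SE 0.40, adjusted p = 0.0585). The rises of these 3 markers over WT CDP were less stable than those of Naaa and Rab7b. The Xcr1 call was lost in 8 of the 9 fits without 1 library, all but that without WT CDP replicate 3 (adjusted p 0.0547 to 0.121). The Clec9a call was lost without d+56het replicate 3 or WT CDP replicate 2 or 3 (adjusted p 0.0619 to 0.0915), and that of Cadm1 without WT CDP replicate 3 (adjusted p = 0.0572). With only the compared groups fitted, all 3 rises lost their call. Those of Xcr1 and Cadm1 were also lost with 18 or 43 libraries fitted. Over all alternatives the adjusted p of the rise lay between 0.00150 and 0.195 for Xcr1, between 0.000387 and 0.0915 for Clec9a and between 0.000190 and 0.491 for Cadm1, for which the direct difference also lost its call with 18 or 43 libraries fitted (adjusted p between 5.22e-13 and 0.193 over the alternatives).

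Some members of the list reached or approached the WT level. Which cells of the samples carried them was not tested, and all 16 cDC2 genes were also called higher than in WT pre-cDC1. Itgax, which encodes the integrin chain CD11c, was at 123, 187 and 185 CPM in d+56het pre-cDC1, 126, 132 and 120.2 CPM in WT pre-cDC1 and 70.1, 73.8 and 70.3 CPM in WT CDP. It rose by 1.21 (SE 0.16, adjusted p = 0.00223), and the direct difference was 0.39 (SE 0.16, adjusted p = 0.136). Btla, an inhibitory receptor, was at 221, 209 and 264 CPM in d+56het pre-cDC1, 359, 307 and 325 CPM in WT pre-cDC1 and 63.6, 56.7 and 73.4 CPM in WT CDP and rose by 1.84 (SE 0.13, adjusted p = 0.000261). The deleted cells held 70.1% of the WT level, and the difference of -0.51 (SE 0.13, adjusted p = 0.0339) lost its call without d+56het replicate 1 or 2, any WT pre-cDC1 replicate or WT CDP replicate 1 (adjusted p 0.0529 to 0.0814). It was also lost with total library size and with only the compared groups, 18 or 43 libraries fitted, and its adjusted p lay between 0.00117 and 0.375 over all alternatives.

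Others showed no rise in the deleted cells. Itgae, which encodes the integrin chain CD103, was at 0 CPM in all 3 libraries of d+56het pre-cDC1, 37.0, 56.9 and 12.4 CPM in WT pre-cDC1 and 0 CPM in all 3 libraries of WT CDP. A floor of 3 counts over the group makes it at least 925-fold lower than in WT pre-cDC1. Wdfy4, needed for cross-presentation of cell-associated antigen, was at 70.7, 46.2 and 61.6 CPM in d+56het pre-cDC1, 226, 234 and 213 CPM in WT pre-cDC1 and 62.6, 68.6 and 62.3 CPM in WT CDP. Deleted cells and WT CDP overlapped (-0.12 (SE 0.15, adjusted p = 0.640)), while WT pre-cDC1 were higher than the deleted cells, with a difference of -1.91 (SE 0.15, adjusted p = 0.000390) for a gene near the count limit. Tlr12, a receptor for microbial profilin, was 0.32 (SE 0.36, adjusted p = 0.585) against WT CDP and -1.88 (SE 0.37, adjusted p = 0.0128) against WT pre-cDC1. Plpp1, a lipid phosphatase, was the member that fell, at 2.17, 2.04 and 1.96 CPM in d+56het pre-cDC1, 8.61, 10.5 and 13.0 CPM in WT pre-cDC1 and 5.29, 4.11 and 7.85 CPM in WT CDP. That fall of -1.48 (SE 0.33, adjusted p = 0.0179) was lost without WT CDP replicate 3 (adjusted p = 0.0633) and with only the compared groups fitted, and its adjusted p lay between 0.000162 and 0.0806 over the alternatives.

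**Figure D3:**
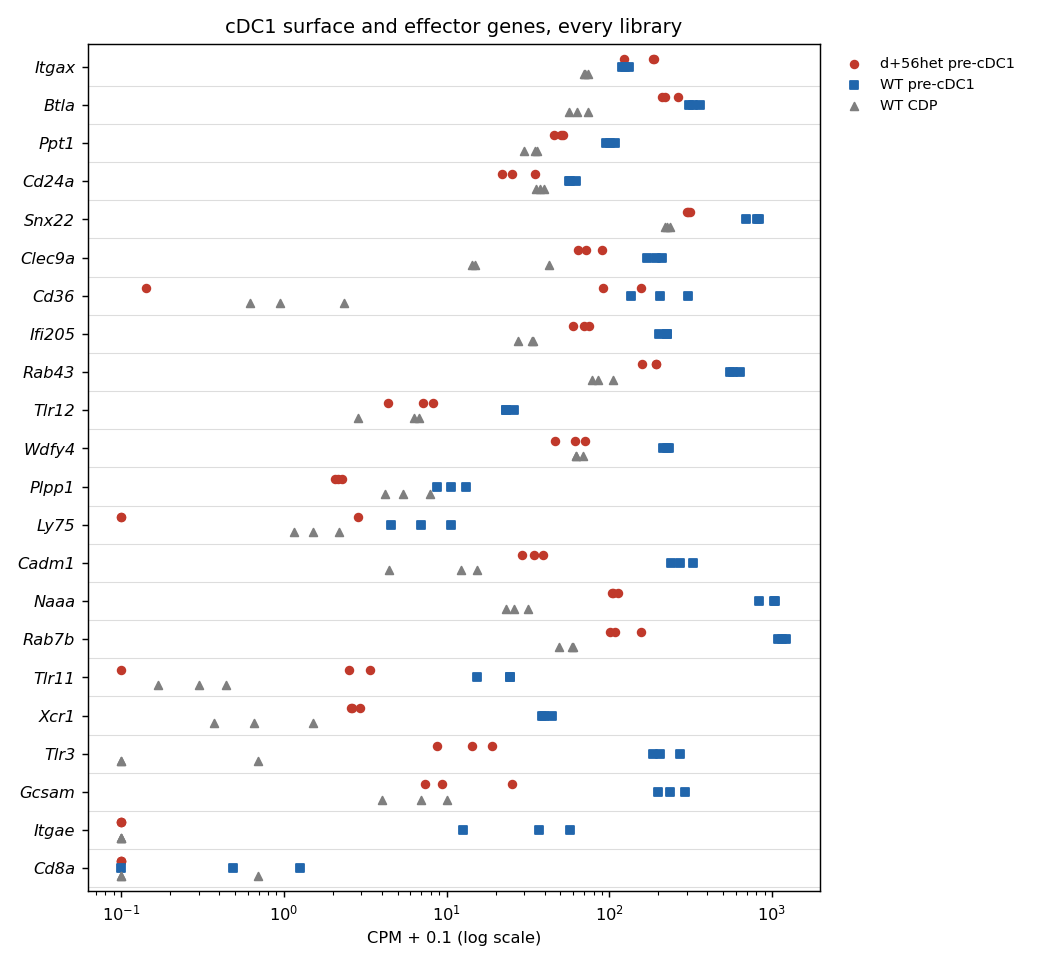
CPM + 0.1 on a log axis for the 22 cDC1 surface and effector genes, with 3 points per group and gene; red circles are d+56het pre-cDC1, blue squares WT pre-cDC1 and grey triangles WT CDP, and genes are ordered by the level of the deleted cells relative to WT pre-cDC1. Itgax is at the top, with deleted cells at 123 to 187 CPM against 120 to 132 CPM in WT pre-cDC1, and genes at 0 in the deleted cells, such as Itgae, are at the bottom.

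Genes of the alternative DC lineages moved the other way between the genotypes. Of 16 cDC2 genes, 11 rose (68.8%) in d+56het pre-cDC1 against WT CDP. In WT pre-cDC1 7 fell and 0 rose by edgeR, where 2 rose by DESeq2 and 2 at an unadjusted p under 0.05. All 16 were higher in d+56het than in WT pre-cDC1, 10 without WT pre-cDC1 replicate 1 or 3. Of 17 tested pDC genes, 8 rose (47.1%) in the deleted cells against WT CDP, 3 without WT CDP replicate 2 or 3. In WT pre-cDC1, 2 of these pDC genes rose (11.8%, against 9.34% of all genes tested) and 10 fell (58.8%, against 7.72%). The 2 became 0 or 1 in 8 of the 9 fits without 1 library, all but that without d+56het replicate 2. Directly, 14 of 17 were higher in d+56het pre-cDC1, with 12 to 13 in the fits without 1 library. The medians in d+56het pre-cDC1 against WT CDP, in WT pre-cDC1 against WT CDP and between the genotypes were 1.03, -0.29 and 1.73 for cDC2 genes and 0.95, -1.75 and 2.81 for pDC genes.

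The summed level of the cDC2 list was 4572 to 5291 CPM in d+56het pre-cDC1, 1140.0 to 1437 CPM in WT pre-cDC1 and 2400 to 3102 CPM in WT CDP. That of the pDC list was 4149 to 5468 CPM in d+56het pre-cDC1, 780.3 to 1043 CPM in WT pre-cDC1 and 2836 to 3269 CPM in WT CDP. Whether other cells within the deleted samples carry these transcripts was not tested. Some of these genes were already abundant in WT CDP and lower in WT pre-cDC1, with or without a further rise in the deleted cells. Tcf4, the E protein that directs pDC fate, was at 1536, 1822 and 2153 CPM in d+56het pre-cDC1, 341, 220.0 and 348 CPM in WT pre-cDC1 and 1104, 1037 and 849 CPM in WT CDP. All groups were apart, with the deleted cells highest. The rise over WT CDP was 0.88 (SE 0.20, adjusted p = 0.0214), lost without WT CDP replicate 2 or 3 (adjusted p 0.0651 to 0.0757), and the direct difference was 2.60 (SE 0.21, adjusted p = 0.000413). Cx3cr1, the fractalkine receptor, was at 42.7, 35.7 and 32.8 CPM in d+56het pre-cDC1, 3.49, 5.11 and 4.79 CPM in WT pre-cDC1 and 27.1, 28.5 and 35.9 CPM in WT CDP. It was 0.28 (SE 0.19, adjusted p = 0.340) in the deleted cells against WT CDP, where values overlapped, and 3.05 (SE 0.20, adjusted p = 0.000256) against WT pre-cDC1.

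Further genes exceeded both WT groups, as Tcf4 did. Bcl11a, which acts upstream of pDC development, was at 229, 209 and 246 CPM in d+56het pre-cDC1, 49.1, 40.9 and 58.3 CPM in WT pre-cDC1 and 102, 82.6 and 99.7 CPM in WT CDP. No library overlapped, and the gene rose by 1.27 (SE 0.15, adjusted p = 0.00154) in d+56het pre-cDC1 and fell, at -0.94 (SE 0.15, adjusted p = 0.00409) in WT pre-cDC1. Tmem176b, a membrane protein of cDC2, was at 1282, 1576 and 1224 CPM in d+56het pre-cDC1, 236, 343 and 383 CPM in WT pre-cDC1 and 551, 643 and 651 CPM in WT CDP, a rise of 1.15 (SE 0.18, adjusted p = 0.00510) over WT CDP and a difference of 2.09 (SE 0.19, adjusted p = 0.000732) from WT pre-cDC1. Cd300a, an inhibitory receptor, rose by 1.49 (SE 0.17, adjusted p = 0.00147), and Cd7, a surface protein of early lymphoid cells and some DCs, by 1.08 (SE 0.13, adjusted p = 0.00144). Sirpa, the surface marker used to separate cDC2 from cDC1, was at 1042, 1437 and 1216 CPM in d+56het pre-cDC1, 190.2, 211 and 203 CPM in WT pre-cDC1 and 705, 729 and 1016 CPM in WT CDP. Its rise over WT CDP, 0.59 (SE 0.17, adjusted p = 0.0428), was lost in 7 of the 9 fits without 1 library (adjusted p 0.0659 to 0.144), all but those without d+56het replicate 1 or WT CDP replicate 3, and lay between 0.00437 and 0.198 over all alternatives. Its direct difference was 2.61 (SE 0.18, adjusted p = 0.000256).

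**Figure D4:**
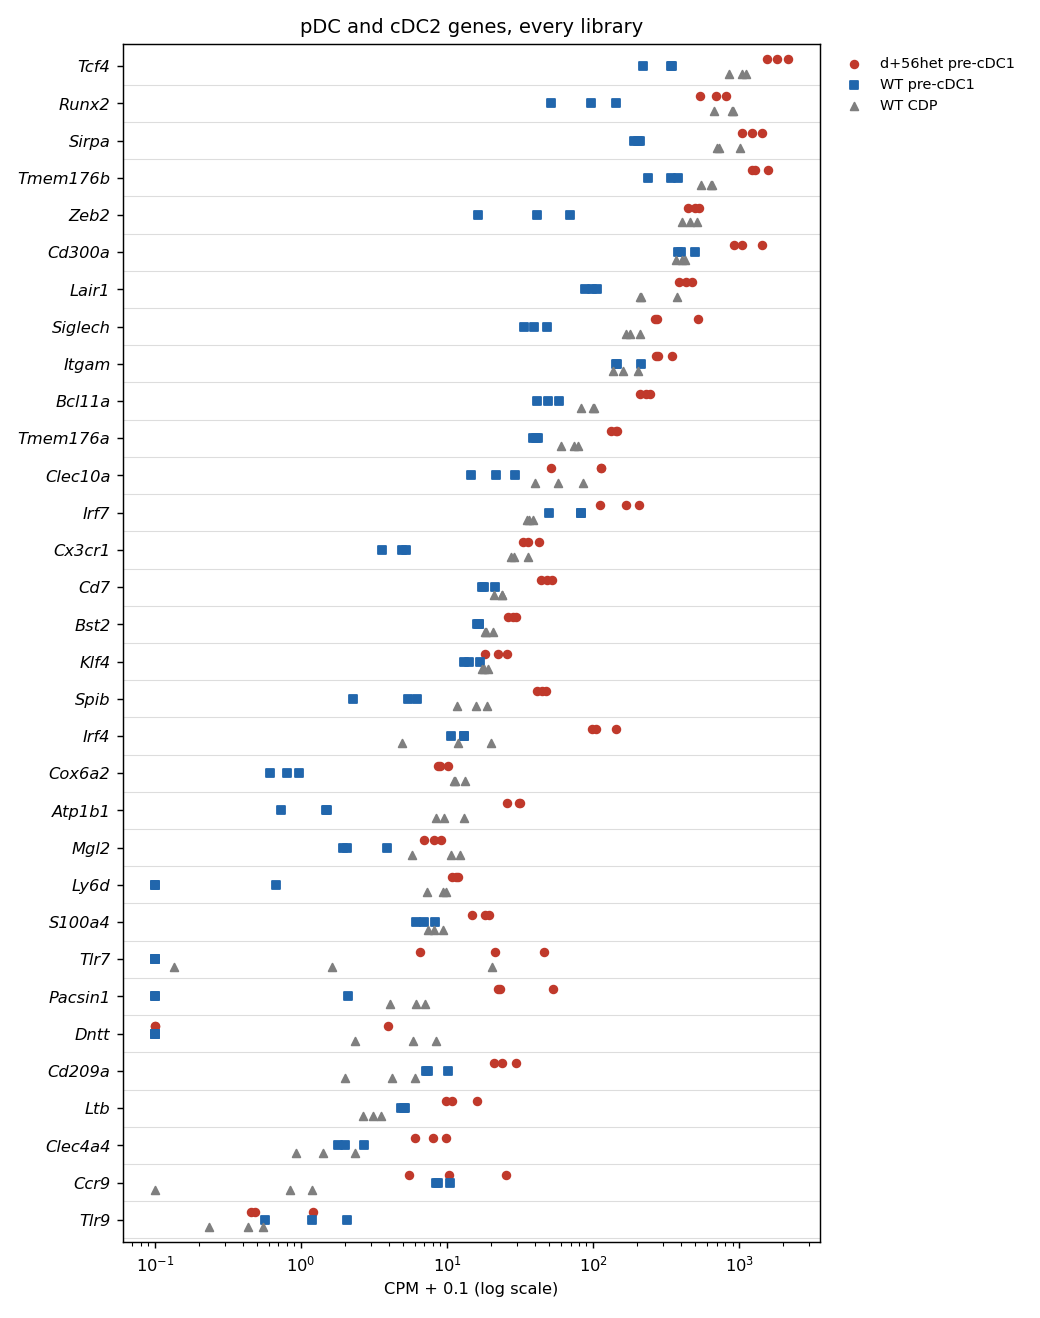
CPM + 0.1 on a log axis for tested members of the pDC and cDC2 lists, ordered by their level in WT CDP, with 3 points per group and gene; red circles are d+56het pre-cDC1, blue squares WT pre-cDC1 and grey triangles WT CDP. For most genes the red circles lie at or right of the grey triangles and the blue squares lie left of both, as for Cx3cr1 at 32.8 to 42.7 CPM in deleted cells against 3.49 to 5.11 CPM in WT pre-cDC1 and 27.1 to 35.9 CPM in WT CDP.

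The antigen presentation genes of MHC class II were the list with the largest share of members higher in the deleted cells than in WT CDP. The list summed to 9116.5 to 10493 CPM in d+56het pre-cDC1, 23913 to 27965 in WT pre-cDC1 and 1840.5 to 2586 in WT CDP. All 12 were higher in d+56het pre-cDC1 than in WT CDP, with a median log2 fold change of 1.3, and 11 of 12 were higher in WT pre-cDC1, with a median of 1.5. Leaving out any 1 library left both counts at 12 and 11. Ciita, the transactivator of class II genes, was at 788, 760.1 and 718 CPM in d+56het pre-cDC1, 1419.7, 1314 and 1326 CPM in WT pre-cDC1 and 112, 146 and 159 CPM in WT CDP. It rose by 2.44 (SE 0.13, adjusted p = 0.000112) in the deleted cells and 3.28 (SE 0.14, adjusted p = 1.63e-05) in WT pre-cDC1, and was lower than in WT by -0.84 (SE 0.13, adjusted p = 0.00431), a call lost with 43 libraries fitted (adjusted p between 3.59e-09 and 0.587 over the alternatives). Cd74, the invariant chain, was at 6183, 6940.2 and 5367 CPM in d+56het pre-cDC1, 22193, 23723 and 19861 CPM in WT pre-cDC1 and 772, 967 and 1329 CPM in WT CDP. The groups were apart, at 2.59 (SE 0.20, adjusted p = 0.000337) and 4.42 (SE 0.22, adjusted p = 2.13e-05) against WT CDP, and the deleted cells held 28.1% of the WT pre-cDC1 level. H2-DMb2, a subunit of the class II peptide editor that may share reads with its close copy H2-DMb1, rose by 2.04 (SE 0.11, adjusted p = 0.000107) and reached 67.4% of WT. Between the genotypes 5 of 12 were lower in d+56het pre-cDC1 (41.7%, against 7.87% of all genes tested). The 1 that was higher (8.33%, against 7.57%) became 0 without WT pre-cDC1 replicate 1 or 3. Near the count limit were 7 members, and the other 5 all rose, with medians of 2.04 in the deleted cells and 2.61 in WT pre-cDC1. For these 5 the median between the genotypes was -0.57.

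Most MHC class I and peptide loading genes were not called between d+56het pre-cDC1 and WT CDP. Of 16 tested, 5 rose (31.3%) and 1 fell (6.25%) in d+56het pre-cDC1, beside 9.18% and 8.33% of all genes tested. In WT pre-cDC1, 7 rose (43.8%, against 9.34%) and 1 fell (6.25%, against 7.72%). The 5 became 3 without d+56het replicate 1 or 2 and 2 without WT CDP replicate 1 or 2. Tap1, the peptide transporter of the class I route, was at 162, 209 and 158 CPM in d+56het pre-cDC1, 556, 642 and 577 CPM in WT pre-cDC1 and 155, 156 and 156 CPM in WT CDP. Deleted cells lay close to WT CDP (0.18 (SE 0.12, adjusted p = 0.344)), and WT pre-cDC1 lay above both, with a direct difference of -1.75 (SE 0.12, adjusted p = 0.000297). Cybb, a subunit of the phagosomal NADPH oxidase near the count limit, went the other way, at 2.02 (SE 0.16, adjusted p = 0.000390) between the genotypes.

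Most progenitor genes were not called between d+56het pre-cDC1 and WT CDP. Of 19 tested stem and progenitor genes, 2 rose in d+56het pre-cDC1 against WT CDP (10.5%, near the 9.18% of all genes tested). There, 4 fell (21.1%, against 8.33%), and the list median was 0.09. In WT pre-cDC1, 4 rose (21.1%, against 9.34%) and 9 fell (47.4%, against 7.72%), with a median of -1.41. Without WT CDP replicate 2 the 2 that rose became 1. Cd34, a sialomucin of progenitors, was at 5.60, 7.62 and 11.8 CPM in d+56het pre-cDC1, 59.4, 49.1 and 88.4 CPM in WT pre-cDC1 and 169, 172 and 155 CPM in WT CDP. The deleted cells were the lowest group, at -4.30 (SE 0.33, adjusted p = 0.000315) against WT CDP and -2.97 (SE 0.31, adjusted p = 0.00119) against WT pre-cDC1. Erg, a factor of stem cells, was at 0 CPM in all 3 libraries of d+56het pre-cDC1, 0 CPM in all 3 libraries of WT pre-cDC1 and 9.69, 5.05 and 13.4 CPM in WT CDP, at least 250.3-fold lower in the deleted cells than in WT CDP. Cd93, an early surface marker, was at 29.3, 39.0 and 33.0 CPM in d+56het pre-cDC1, 14.9, 18.5 and 17.2 CPM in WT pre-cDC1 and 66.6, 61.5 and 69.3 CPM in WT CDP, between WT CDP and WT pre-cDC1. It fell, at -0.96 (SE 0.14, adjusted p = 0.00308) in deleted cells and -1.96 (SE 0.14, adjusted p = 0.000104) in WT pre-cDC1, with the call in the deleted cells lost with 43 libraries fitted (adjusted p between 1.69e-08 and 0.0579 over the alternatives).

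Lmo2 and Csf1r were not called between d+56het pre-cDC1 and WT CDP. Lmo2, an adaptor of haematopoietic factors, was at 406, 475 and 387 CPM in d+56het pre-cDC1, 148, 125 and 194 CPM in WT pre-cDC1 and 354, 319 and 366 CPM in WT CDP. Its value was 0.29 (SE 0.16, adjusted p = 0.266) against WT CDP and 1.44 (SE 0.17, adjusted p = 0.00156) between the genotypes. Csf1r, the receptor for macrophage colony-stimulating factor and near the count limit, was at 114, 113 and 96.9 CPM in d+56het pre-cDC1, 21.4, 22.3 and 47.2 CPM in WT pre-cDC1 and 99.9, 99.01 and 104 CPM in WT CDP, with 0.09 (SE 0.28, adjusted p = 0.853) against WT CDP and 1.83 (SE 0.29, adjusted p = 0.00522) against WT pre-cDC1. Kit, the stem cell factor receptor, was higher in both pre-cDC1 groups, at 92.2, 61.9 and 63.0 CPM in d+56het pre-cDC1, 301, 275 and 284 CPM in WT pre-cDC1 and 40.1, 26.4 and 17.9 CPM in WT CDP. It rose by 1.36 (SE 0.28, adjusted p = 0.0144) in deleted cells, a call lost without WT CDP replicate 2 (adjusted p = 0.0594), and by 3.35 (SE 0.30, adjusted p = 0.000292) in WT pre-cDC1. Csf2rb, the shared chain of the GM-CSF and IL-3 receptors, rose by 1.19 (SE 0.12, adjusted p = 0.000890) and 1.72 (SE 0.12, adjusted p = 0.000103).

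Granule genes of the granulocyte and monocyte branch were already low in both pre-cDC1 groups. Of 8 tested, 4 fell (50%) in d+56het pre-cDC1 and 5 in WT pre-cDC1. The 4 became 0 without any of the WT CDP replicates, 1 without d+56het replicate 1 and 2 without d+56het replicate 3, and the 5 became 1 to 3 without any WT pre-cDC1 or WT CDP replicate. Mpo, myeloperoxidase, was at 0.0395, 0 and 1.89 CPM in d+56het pre-cDC1, 0.564, 1.45 and 0 CPM in WT pre-cDC1 and 45.6, 53.8 and 53.1 CPM in WT CDP. Every pre-cDC1 library of either genotype was far below WT CDP, with -6.22 (SE 1.48, adjusted p = 0.0245) in the deleted cells, a call lost without any WT CDP replicate (adjusted p 0.0691 to 0.0762) and with DESeq2 (adjusted p between 0.00182 and 0.0762 over the alternatives). Mpo is near the count limit.

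DNA replication genes fell further in the deleted cells than in WT pre-cDC1. In d+56het pre-cDC1, 20 of 21 were lower (95.2%) than in WT CDP, with a median of -1.16, while in WT pre-cDC1 11 of 21 were lower, with a median of -0.62. Directly, 12 of 21 were lower in d+56het than in WT pre-cDC1, with 7 without WT pre-cDC1 replicate 2. The 11 in WT pre-cDC1 became 7 without any WT pre-cDC1 replicate or WT CDP replicate 2. Mcm6, a subunit of the replicative helicase, was at 301, 293 and 282 CPM in d+56het pre-cDC1, 569.6, 564 and 548 CPM in WT pre-cDC1 and 896, 971 and 863 CPM in WT CDP. The groups did not overlap, at -1.64 (SE 0.07, adjusted p = 0.000107) in the deleted cells, -0.70 (SE 0.07, adjusted p = 0.000530) in WT pre-cDC1 and -0.94 (SE 0.07, adjusted p = 0.000324) between them. Mcm7, of the same complex, was at 389.9, 332 and 322 CPM in d+56het pre-cDC1, 639, 655 and 641 CPM in WT pre-cDC1 and 1271, 1365 and 1211 CPM in WT CDP and showed the same order (-0.89 (SE 0.09, adjusted p = 0.00115)). Cdc6, which loads the helicase at origins, fell, at -2.36 (SE 0.17, adjusted p = 0.000255) in deleted cells, a call lost with 43 libraries fitted (adjusted p between 1.12e-39 and 0.137 over the alternatives). Near the count limit were 8 members. The other 13 all fell in the deleted cells, with a median of -1.59.

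Lists of genes were also drawn from primary cells, taken directly from marrow and used in none of the cultured groups. They come from pre-cDC1 against MDP, the stage before CDP, so they span more than the cultured comparison. Up to 100 genes were listed in each direction by the smallest p among those called with at least a 4-fold difference between primary WT marrow pre-cDC1 and MDP. Of the 100 genes higher in primary pre-cDC1, 78 rose in d+56het pre-cDC1 against WT CDP (78.0%, against 9.18% of all genes tested), with a median of 1.11. By edgeR 0 fell, beside 1 by DESeq2 and 1 at an unadjusted p under 0.05. In WT pre-cDC1, 70 rose (70%, against 9.34% of all genes tested) and 2 fell, with a median of 1.10. This list is not confined to cDC1 genes, since the cDC2 factor Irf4 is on it. Its counts therefore do not show how much of the cDC1 programme the deleted cells made. Directly, 19 were higher (19%, against 7.57% of all genes tested) and 16 lower (16%, against 7.87%) in d+56het pre-cDC1, and 65 were not called. Of 79 tested genes that were lower in primary pre-cDC1, 28 fell (35.4%) and 1 rose in d+56het pre-cDC1, beside 29 and 2 in WT pre-cDC1. The 28 became 14, 12 and 12 without WT CDP replicate 1, 2 or 3, and the 78 became 65 to 77 in the fits without 1 library. With lists from splenic in place of marrow pre-cDC1, 88 of 100 rose and 41 of 96 fell in the deleted cells, beside 80 and 51 in WT pre-cDC1.

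The genes of the primary lists named here were picked for the smallest or largest direct difference among called members. Their direct differences therefore show the extremes of each list and are not a result. Genes that rose in both genotypes with no called difference between them include Evi2a, a membrane protein of blood cells. It was at 287, 292 and 377 CPM in d+56het pre-cDC1, 286, 319 and 311 CPM in WT pre-cDC1 and 93.5, 101 and 118 CPM in WT CDP. The pre-cDC1 groups overlapped and both exceeded WT CDP, with 1.61 (SE 0.14, adjusted p = 0.000465) in deleted cells and 0.06 (SE 0.13, adjusted p = 0.804) between genotypes. Cd300lg, a receptor of the CD300 family, rose by 2.13 (SE 0.25, adjusted p = 0.00144), with a direct difference of 0.03 (SE 0.24, adjusted p = 0.951), and Irak2, a kinase of Toll-like receptor signalling, by 1.59 (SE 0.27, adjusted p = 0.00578) with -0.04 (SE 0.26, adjusted p = 0.945). Other genes of the same list, picked for the largest direct difference, split the genotypes. Hrh1, a histamine receptor, was at 242, 342 and 385 CPM in d+56het pre-cDC1, 29.6, 37.0 and 44.4 CPM in WT pre-cDC1 and 11.4, 30.9 and 36.5 CPM in WT CDP. Deleted cells exceeded both WT groups, at 3.62 (SE 0.43, adjusted p = 0.00154) over WT CDP and 3.13 (SE 0.42, adjusted p = 0.00267) over WT pre-cDC1. Phf11a, an interferon-regulated gene family member near the count limit, was at 2.29, 4.34 and 6.50 CPM in d+56het pre-cDC1, 41.0, 49.2 and 32.8 CPM in WT pre-cDC1 and 0.273, 0.139 and 0.604 CPM in WT CDP, with relatives that may share its reads. Its rise of 3.67 (SE 0.55, adjusted p = 0.00387) reached 10.7% of the WT level. Among genes that fell, Mlkl, the executor of necroptosis, was at 12.2, 10.1 and 7.32 CPM in d+56het pre-cDC1, 3.03, 7.90 and 10.3 CPM in WT pre-cDC1 and 80.4, 94.6 and 74.0 CPM in WT CDP. Both pre-cDC1 groups lay below WT CDP, at -3.07 (SE 0.42, adjusted p = 0.00255) and -3.55 (SE 0.42, adjusted p = 0.00105). Egfl7, a secreted factor also made by endothelium, fell, at -2.35 (SE 0.39, adjusted p = 0.00558) and -3.11 (SE 0.40, adjusted p = 0.00152).

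**Figure D5:**
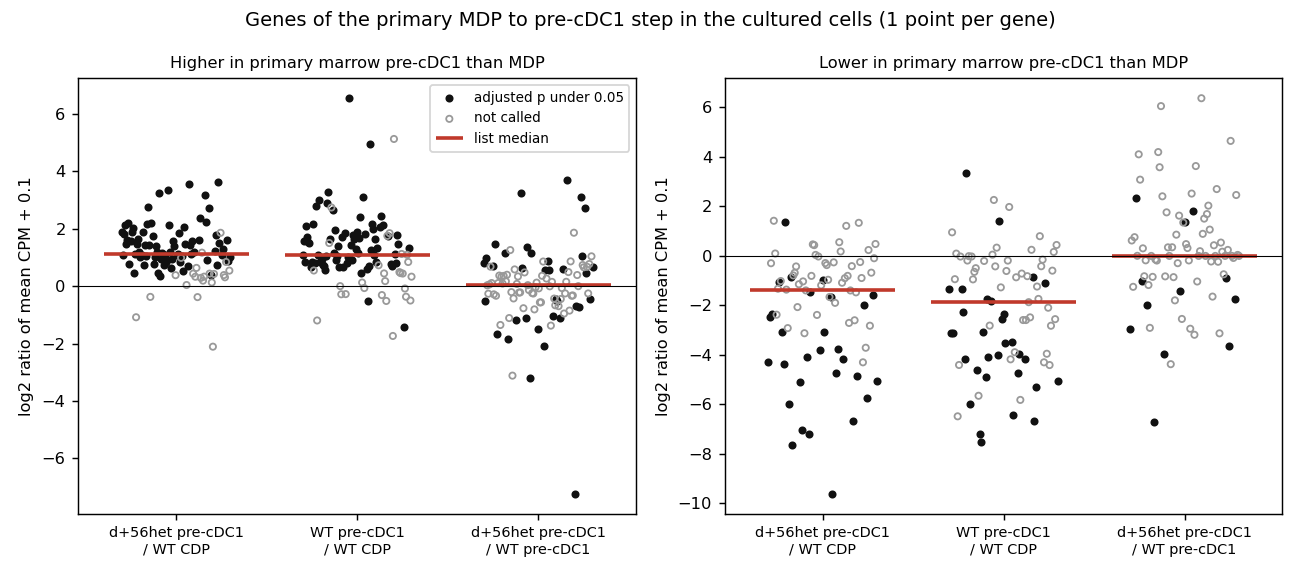
Log2 ratio of group means (CPM + 0.1) for genes that were higher (left) or lower (right) in primary marrow pre-cDC1 than in primary MDP, 1 point per gene, in d+56het pre-cDC1 over WT CDP, WT pre-cDC1 over WT CDP and d+56het over WT pre-cDC1; filled points had an adjusted p under 0.05 and red bars are medians. On the left, most genes lie above 0 in the first and second columns (78 and 70 called of 100) and spread around 0 in the third.

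Among all genes, the largest rises over WT CDP were led by genes near 0 in WT CDP. Fgfr1, a fibroblast growth factor receptor, was at 21.8, 51.4 and 29.1 CPM in d+56het pre-cDC1, 75.8, 80.0 and 72.8 CPM in WT pre-cDC1 and 1.02, 0 and 0.704 CPM in WT CDP, a rise of 5.87 (SE 0.78, adjusted p = 0.00237) beside 7.03 (SE 0.81, adjusted p = 0.000906) in WT pre-cDC1. Prkcb, protein kinase C beta, was at 67.2, 60.5 and 50.9 CPM in d+56het pre-cDC1, 55.6, 42.7 and 33.9 CPM in WT pre-cDC1 and 3.82, 3.13 and 3.72 CPM in WT CDP. The pre-cDC1 groups overlapped, far above WT CDP, at 4.06 (SE 0.22, adjusted p = 0.000112) and 3.63 (SE 0.22, adjusted p = 5.04e-05). Klra17, a lectin-like receptor of the Ly49 family, was at 59.7, 80.7 and 76.8 CPM in d+56het pre-cDC1, 10.02, 6.88 and 8.67 CPM in WT pre-cDC1 and 4.13, 1.88 and 5.20 CPM in WT CDP. Here the deleted cells stood far above both WT groups, at 4.27 (SE 0.37, adjusted p = 0.000480) over WT CDP and 3.09 (SE 0.35, adjusted p = 0.00145) over WT pre-cDC1. Ly49 genes resemble each other, so reads may be shared among them and this value is uncertain. The deepest falls were of genes with 0 counts in all deleted libraries. Muc13, a membrane mucin, was at 0 CPM in all 3 libraries of d+56het pre-cDC1, 0 CPM in all 3 libraries of WT pre-cDC1 and 80.0, 93.1 and 114 CPM in WT CDP, at least 2537-fold lower in d+56het pre-cDC1 than in WT CDP. Cd81, a tetraspanin, was at 0 CPM in all 3 libraries of d+56het pre-cDC1, 10.9, 14.4 and 5.55 CPM in WT pre-cDC1 and 17.6, 16.5 and 25.8 CPM in WT CDP, at least 530.4-fold lower than in WT CDP and at least 270.2-fold lower than in WT pre-cDC1.

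With a highest group mean of at least 10 CPM, 37 genes were called higher than WT CDP in d+56het pre-cDC1 and lower in WT pre-cDC1, and 18 showed the reverse. Those named here were picked for the largest direct differences among them. Blnk, an adaptor of B cell receptor signalling also found in pDC, was at 37.6, 71.2 and 88.3 CPM in d+56het pre-cDC1, 0.776, 2.40 and 1.45 CPM in WT pre-cDC1 and 14.5, 14.5 and 9.59 CPM in WT CDP. All groups were apart, at 2.35 (SE 0.43, adjusted p = 0.00814) in deleted cells, -3.06 (SE 0.46, adjusted p = 0.00308) in WT pre-cDC1 and 5.42 (SE 0.50, adjusted p = 0.000766) between them. Both calls against WT CDP were lost with 43 libraries fitted (adjusted p between 2.69e-06 and 0.221 and between 2.41e-09 and 0.119 over the alternatives). Siglech, a lectin of pDC, was at 265, 272 and 526 CPM in d+56het pre-cDC1, 39.0, 48.5 and 33.8 CPM in WT pre-cDC1 and 207, 177 and 168 CPM in WT CDP, with a direct difference of 3.13 (SE 0.29, adjusted p = 0.000775). Its rise over WT CDP, 0.95 (SE 0.27, adjusted p = 0.0476), was lost in 7 of the 9 fits without 1 library, all but those without d+56het replicate 1 or 2 (adjusted p 0.0578 to 0.141), and its adjusted p lay between 0.00497 and 0.279 over all alternatives. Il4i1, a secreted amino acid oxidase, was at 41.4, 37.4 and 33.3 CPM in d+56het pre-cDC1, 2.68, 4.80 and 6.31 CPM in WT pre-cDC1 and 10.7, 9.82 and 12.2 CPM in WT CDP. It was 1.78 (SE 0.29, adjusted p = 0.00501) in d+56het pre-cDC1 against WT CDP and 3.02 (SE 0.30, adjusted p = 0.00106) against WT pre-cDC1. Its fall in WT pre-cDC1 was lost without WT pre-cDC1 replicate 2 or WT CDP replicate 1 or 3 (adjusted p 0.0588 to 0.0695) and with 43 libraries fitted. It overlaps the entry Il4i1b, so reads may be split between them. In the reverse direction, Trpm2, a calcium-permeable channel, was at 0 CPM in all 3 libraries of d+56het pre-cDC1, 8.36, 15.2 and 6.64 CPM in WT pre-cDC1 and 0.853, 0.522 and 1.84 CPM in WT CDP, at least 262-fold lower in d+56het than in WT pre-cDC1. Its fall against WT CDP lost the call with only the compared groups fitted (adjusted p between 1.94e-06 and 0.0605 over the alternatives). The rise of Trpm2 in WT pre-cDC1 was lost without WT pre-cDC1 replicate 1 or 2 or WT CDP replicate 1 or 2 (adjusted p 0.0637 to 0.0969) and with 18 libraries fitted.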

How the data were processed

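Each library was made from about 1500 to 10000 cells with SMART-Seq HT amplification and Nextera XT tagging, per the labels' protocols. The deposited files hold expected counts per gene, 1 file per library. Tools named in the submitters' processing notes are RSEM 1.3.3, STAR 2.7.7a and Picard 2.25.0, with the builds mm10 and GRCm38, and the notes give them no roles. The annotation and any duplicate removal are not given in the sources used here. The chemistry keeps neither strand nor molecular identifiers, so overlapping genes cannot be separated and bounds cover counting error only.

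Expected counts of 21000 genes were rounded to whole numbers. The 9 libraries were fitted together with edgeR 4.0.16 in R 4.3.3 (TMM, filterByExpr, quasi-likelihood F test, Benjamini-Hochberg adjustment, threshold 0.05), with the group as the only term. The SE of a log2 fold change is its size over the root of its F statistic. Folds against groups at 0 use a floor of 3 counts over the group. Alternatives were DESeq2 1.42.0, other scalings, no filter, the replicate number as a block, fits of other libraries and each library left out. The fits of other libraries held only the groups compared, 18 cultured libraries, or 43 libraries, which leaves out 4 whose titles and file names disagree. The members, gene lists and naming rule (Irf8, the 10 largest rises and falls, list members, genes of opposite direction and of the primary lists) were chosen with earlier results of these data known. The fit was tested on simulated data. Values of some list members are not reported here.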

Additional observations from a re-analysis of the deposited data

How the results depend on the processing

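Both Irf8 and the list of primary genes that rose kept their direction under every alternative run for them, Irf8 with its call. For d+56het pre-cDC1 against WT CDP, DESeq2 called 3265 genes and a fit of only these groups 1339, beside 2012 by edgeR; leaving out 1 library gave 1072 to 2082. For WT pre-cDC1 against WT CDP, DESeq2 called 2990 and only these groups 3132, beside 1960, with 1171 to 2439 without 1 library. Between the genotypes, DESeq2 called 2940 and only these groups 1094, beside 1774, with 956 to 1859 without 1 library. The primary genes called lower in d+56het pre-cDC1 numbered 12 to 26 without 1 library, those called higher 65 to 77, and the Irf8 value lay between -0.83 and -0.61. The larger direction of the calls over all genes turned with total library size in both comparisons with WT pre-cDC1, and without d+56het replicate 1 in d+56het pre-cDC1 against WT CDP, with the counts given above. Replicate numbers did not pair the samples: deviations of same-numbered libraries correlated between -0.0548 and 0.0288. With the replicate block, the counts were 1559, 1594 and 1362 in the order above (the last with 685 higher and 677 lower), and Irf8 stayed at -0.71 (adjusted p = 0.0263); losses of single genes' calls under this block are not listed above. Without genes near the count limit, an alternative chosen after seeing the data, they were 1779, 1733 and 1601. Of the named genes called, 83 of 128, 96 of 131 and 84 of 106 kept their call in every fit without 1 library. In simulated counts for d+56het pre-cDC1 against WT CDP, edgeR called 8 of 50 genes with a 2-fold change, 35 of 50 with a 4-fold change and 34 of 50 with an 8-fold change among 11275, so large differences can be missed too at this size.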

Other observations

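Counts for further gene lists follow, some of them near the share over all genes tested. That share was 9.18% higher and 8.33% lower in d+56het pre-cDC1 against WT CDP. Of 18 immediate early genes, 8 rose in d+56het pre-cDC1 (44.4%) and 15 in WT pre-cDC1 (83.3%) against WT CDP, and 7 were lower in d+56het than in WT pre-cDC1. The 8 became 5 without WT CDP replicate 2, the 15 became 9 without WT pre-cDC1 replicate 1, and the 7 became 2, 3 and 3 without WT pre-cDC1 replicate 1, 2 or 3. Fos, a component of AP-1 near the count limit, was at 32.6, 31.9 and 27.9 CPM in d+56het pre-cDC1, 56.5, 50.2 and 56.8 CPM in WT pre-cDC1 and 5.73, 9.09 and 3.59 CPM in WT CDP. Nr4a1, an orphan nuclear receptor, was at 4.70, 8.30 and 8.36 CPM in d+56het pre-cDC1, 32.0, 35.6 and 38.0 CPM in WT pre-cDC1 and 3.48, 6.79 and 5.23 CPM in WT CDP, with deleted cells overlapping WT CDP and a direct difference of -2.30 (SE 0.31, adjusted p = 0.00253). Of 13 tested DC maturation genes, 4 rose in each pre-cDC1 group against WT CDP. Cd83, a stabiliser of MHC class II and CD86 at the surface, was at 47.3, 72.5 and 80.5 CPM in d+56het pre-cDC1, 808, 1033 and 645 CPM in WT pre-cDC1 and 9.72, 9.16 and 15.3 CPM in WT CDP, so that it rose by 2.55 (SE 0.29, adjusted p = 0.00139) in deleted cells and still held 8.05% of the WT level. Icosl, a costimulatory ligand, rose by 1.80 (SE 0.11, adjusted p = 0.000195) in d+56het pre-cDC1 and by 1.79 (SE 0.11, adjusted p = 6.29e-05) in WT pre-cDC1. Ccr7, the receptor for migration to lymph nodes, was at 62.3, 47.3 and 52.1 CPM in d+56het pre-cDC1, 7.69, 4.95 and 6.38 CPM in WT pre-cDC1 and 69.0, 71.7 and 73.8 CPM in WT CDP. Its direct difference was 3.09 (SE 0.18, adjusted p = 0.000191), a call lost with 43 libraries fitted (adjusted p between 1.79e-58 and 0.0826 over the alternatives).

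Of 14 tested interferon-stimulated genes, 8 rose in d+56het pre-cDC1 (57.1%) and 4 in WT pre-cDC1, but the 8 became 3 to 6 in the fits without 1 library, under 6 in all but that without d+56het replicate 2. The 4 became 1 without WT pre-cDC1 replicate 1 or WT CDP replicate 1 or 3 and 2 without WT pre-cDC1 replicate 3 or WT CDP replicate 2. Irf7, the interferon-inducible factor of pDC, was at 111, 205 and 169 CPM in d+56het pre-cDC1, 82.4, 49.9 and 83.0 CPM in WT pre-cDC1 and 36.3, 38.7 and 35.4 CPM in WT CDP, a rise of 2.14 (SE 0.26, adjusted p = 0.00184) in the deleted cells. Of 10 tested chemokine receptor genes, 5 rose in d+56het pre-cDC1 and 2 to 4 did so without 1 library, under 4 in all but the fits without d+56het replicate 2 or 3. S1pr4, a sphingosine phosphate receptor, was at 20.3, 23.3 and 22.7 CPM in d+56het pre-cDC1, 8.82, 9.83 and 13.1 CPM in WT pre-cDC1 and 10.2, 9.68 and 10.2 CPM in WT CDP. Of 13 Toll-like receptor genes, 1 rose and 1 fell in the deleted cells (7.69% each, against 9.18% and 8.33% of all genes tested). The 1 that rose became 2 without d+56het replicate 2 or 3, and the 1 that fell became 0 without any WT CDP replicate. Ribosome biogenesis genes fell in 6 of 18 cases (33.3%) in d+56het pre-cDC1 and in 1 in WT pre-cDC1 (5.56%, against 7.72% of all genes tested). Of these 18, 9 were lower in d+56het than in WT pre-cDC1, a count of 5, 4 and 5 without WT pre-cDC1 replicate 1, 2 or 3. Npm1, nucleophosmin, was at 648, 619 and 666 CPM in d+56het pre-cDC1, 891, 928 and 917 CPM in WT pre-cDC1 and 1282, 1374 and 1322 CPM in WT CDP. Mitosis genes fell in 3 of 17 cases in the deleted cells (17.6%, against 8.33% of all genes tested). The 3 became 7 without d+56het replicate 1 and 1 without WT CDP replicate 1 or 2. Directly, 1 was higher and 1 lower in d+56het than in WT pre-cDC1 (5.88% each, against 7.57% and 7.87%). These became 0 to 2 and 1 to 2 in the fits without 1 library.

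Markers of other cells were summed by list. For 16 monocyte and macrophage genes the summed level was 832 to 894 CPM in d+56het pre-cDC1. It was 518 to 534 CPM in WT pre-cDC1 and 656 to 818 CPM in WT CDP. Of 15 tested, 3 rose in the deleted cells (20%, against 9.18% of all genes tested). The 1 that fell (6.67%, against 8.33%) became 0 without WT CDP replicate 2. Of these 15, 5 were higher (33.3%, against 7.57%) and 1 lower (6.67%, against 7.87%) in d+56het than in WT pre-cDC1. For 10 mast cell, basophil and eosinophil markers the sums were 12.4 to 27.0, 1.42 to 15.2 and 2.68 to 4.70 CPM in the same order of groups. For 12 erythroid and megakaryocyte markers they were 6.21 to 8.60, 0.590 to 2.61 and 5.63 to 8.11 CPM, and for 12 T, NK and innate lymphoid markers at most 0.474, 2.52 and 0.716 CPM. B cell markers summed to 72.3 to 127.5 CPM in d+56het pre-cDC1, 7.39 to 14 CPM in WT pre-cDC1 and 51.5 to 61.3 CPM in WT CDP, while Ebf1 and Pax5 were at 0 in all 9 libraries. A large part of the sum in d+56het pre-cDC1 came from Blnk, also found in pDC, and only 3 members were tested.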
